A study of Homo sapiens with 15 samples.

Results

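The genes described here are the core of the oxygen-sensing pathway: *VHL*, the HIF subunits *HIF1A*, *EPAS1* and *ARNT*, and the oxygen-dependent hydroxylases *EGLN1*, *EGLN2*, *EGLN3* and *HIF1AN*. The rule that picks them names symbols and uses no measured value, though it was set with earlier results of these data known, and all 8 were found among the 15247 genes that the expression tables of both cell lines hold. RNA-seq was done on 15 libraries of 2 human clear cell renal cell carcinoma (ccRCC) lines, CAKi-1 and 786O, with and without loss of *ANGPTL4*, which encodes a secreted inhibitor of lipoprotein lipase. CAKi-1 was sequenced in 4 wild-type (WT) and 5 ANGPTL4 knockout (A4KO) libraries, and 786O in 3 libraries of each genotype. The A4KO cells of each line came from transfection with a nuclease protein and a guide RNA for *ANGPTL4*, after which single clones with loss of its RNA were combined, so that each A4KO group is a mixture of clones. In these groups loss of *ANGPTL4* cannot be told apart from the selection of clones. 786O WT cells were combined clones from the same procedure that had kept *ANGPTL4*. For CAKi-1 WT the sources differ: the methods name the parental cells, and the design text names combined clones. Both lines were grown with fetal bovine serum and harvested in log phase, and the sources differ on the medium (RPMI in the labels, DMEM in the methods). The study describes CAKi-1 as carrying wild-type *VHL* and 786O as carrying mutant *VHL*, a state that gene-level expression does not show.

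Cells sense oxygen through the stability of the HIF alpha subunits. With oxygen, the EGLN enzymes hydroxylate prolines of HIF-1 alpha (encoded by *HIF1A*) and HIF-2 alpha (encoded by *EPAS1*), the VHL protein binds the hydroxylated form as the substrate receptor of a ubiquitin ligase, and the proteasome degrades it. HIF1AN, also called FIH, hydroxylates an asparagine and blocks the binding of coactivators. Without oxygen, or without VHL, the alpha subunits persist, pair with ARNT and bind hypoxia response elements. Inactivation of *VHL* on the short arm of chromosome 3 is the founding lesion of most ccRCC, in which HIF-2 alpha is known as the main driver and HIF-1 alpha is often lost with chromosome 14. The libraries measure RNA, whereas most of this control acts on protein.

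Values are TPM, a measure of transcript abundance scaled for transcript length and for the library total, as the authors deposited them. In bulk RNA, fewer cells of a kind and less RNA per cell cannot be told apart. *ANGPTL4* was at 79.2 ± 7.06 TPM in CAKi-1 WT (SD, n = 4) and at 4.47 ± 2.20 TPM in CAKi-1 A4KO (SD, n = 5), and at 18.8 ± 1.58 and 2.07 ± 0.185 TPM in the 786O groups (SD, n = 3 each), and it was lower in every A4KO library of its line. *PAX8*, a lineage factor of renal epithelium, was at mean levels between 152 and 231 TPM in the 4 groups, and of the renal epithelial markers tested 2 of 7 rose and 3 fell in CAKi-1 A4KO and 2 of 8 rose and 6 fell in 786O A4KO (of all genes, 17.9% rose and 21.1% fell in CAKi-1 and 27.5% rose and 33.5% fell in 786O), the falls including the abundant *KRT8*, *KRT18* and *VIM* in both lines. Of 8 markers of leukocytes, endothelium and fibroblasts, the endothelial *CDH5* and *VWF* had no values in the tables used here, and the summed level of the other 6 ran from 80.7 to 85.8 TPM in CAKi-1 WT, 98.5 to 134.8 TPM in CAKi-1 A4KO, 47.2 to 50.2 TPM in 786O WT and 28.7 to 31.8 TPM in 786O A4KO. In 3 of the groups most of this sum was the macrophage marker *CD68*, with mean levels of 57.3 and 54.3 TPM in CAKi-1 WT and A4KO and 43.1 and 20.2 TPM in 786O WT and A4KO. In CAKi-1 A4KO the endothelial *PECAM1* rose from 0.360 to 3.29 TPM (adjusted p = 0.00274) and the fibroblast *COL1A1* from 10.2 to 36.2 TPM (adjusted p = 1.43e-05), and in 786O A4KO, where the sum was lower, the pericyte *PDGFRB* rose from 0.407 to 4.69 TPM (adjusted p = 5.85e-05). The leukocyte *PTPRC* and the fibroblast *DCN* were under 1 TPM on average in every group. The part of these markers in the results was not tested. In CAKi-1, A4KO replicates 1 and 4 stood apart from replicates 2, 3 and 5: the median absolute log2 difference over all genes was 0.202 to 0.232 between these libraries, against 0.0845 to 0.101 within replicates 2, 3 and 5 and 0.0785 between replicates 1 and 4. *ANGPTL4* itself was at 7.26 and 6.47 TPM in replicates 1 and 4, against 2.87, 2.87 and 2.90 TPM in replicates 2, 3 and 5. For 7 of the 8 genes, all but *VHL*, the TPM of replicates 1 and 4 lay outside the range of replicates 2, 3 and 5. These libraries were set apart by their differences over all genes, so this split is not read as a trait of the 8. CAKi-1 values are therefore given with and without replicates 1 and 4 where it matters.

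The sequences upstream of the 3 genes that changed the most are shown because *EGLN3* is a known HIF target and HIF binds the core letters ACGTG or GCGTG of the hypoxia response element. They are the 250 bases before the start site in RefSeq (GRCh38.p14), 5′ to 3′ on the gene's strand, with either core, searched on both strands, in capitals. The regions are chr14:61695263-61695512 on the plus strand for *HIF1A*, chr2:46297157-46297406 on the plus strand for *EPAS1* and chr14:33951075-33951324 on the minus strand for *EGLN3*.
HIF1A: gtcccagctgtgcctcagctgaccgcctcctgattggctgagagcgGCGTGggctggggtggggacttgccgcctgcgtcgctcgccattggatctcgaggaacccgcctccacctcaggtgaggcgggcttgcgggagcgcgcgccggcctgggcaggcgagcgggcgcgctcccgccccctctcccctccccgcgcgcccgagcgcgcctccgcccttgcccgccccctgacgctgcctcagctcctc
EPAS1: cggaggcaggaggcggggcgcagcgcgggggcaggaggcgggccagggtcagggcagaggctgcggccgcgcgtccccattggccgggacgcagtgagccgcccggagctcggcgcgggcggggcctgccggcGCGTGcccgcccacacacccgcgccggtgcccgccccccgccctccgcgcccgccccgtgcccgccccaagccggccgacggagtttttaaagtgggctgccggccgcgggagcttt
EGLN3: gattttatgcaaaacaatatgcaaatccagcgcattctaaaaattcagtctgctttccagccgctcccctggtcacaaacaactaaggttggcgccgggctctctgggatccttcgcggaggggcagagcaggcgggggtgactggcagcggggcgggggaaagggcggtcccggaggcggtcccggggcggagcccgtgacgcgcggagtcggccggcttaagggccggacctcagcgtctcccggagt
The *HIF1A* window held 1 GCGTG, whose last base lay 200 bases from the start, and the *EPAS1* window held 1 GCGTG at 113 bases. The *EGLN3* window held neither core. The RefSeq starts of *EPAS1* and *EGLN3* used here lie inside the GENCODE gene intervals given for them, which begin further upstream, so what a window holds depends on the start used. Among the other genes with a RefSeq entry, the first *EGLN2* window held ACGTG on both strands, as 2 overlapping copies in the palindrome CACGTG, the *EGLN1* window held 1 ACGTG, and the windows of *ARNT* and *HIF1AN* held neither. Of all 35116 windows of this length, 43.2% held one of the cores, so these matches are only a description. *HIF1A* and *EGLN2* have 2 RefSeq starts each, and in both cases the second window held neither core. *VHL* was not matched. In GENCODE release 44 (hg38) *VHL* lies at chr3:10141778-10153667, *EPAS1* at chr2:46293667-46386697, *ARNT* at chr1:150809713-150876708, *EGLN1* at chr1:231363751-231422287, *EGLN2* at chr19:40798996-40808434 and *HIF1AN* at chr10:100529072-100559998.

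In CAKi-1, loss of *ANGPTL4* came with a large step in *EPAS1*, one of the HIF alpha subunits, and with small differences in the rest of the group. *VHL* rose, and *EGLN2* and *EGLN3* fell, by much less. With limma and adjustment over all 16296 genes, 4 of the 8 genes passed an adjusted p of 0.05, against 39.0% of all genes. Of these 2 were higher and 2 lower, against 17.9% and 21.1% of all genes. At the study's threshold, which also asks for a log2 fold change of 1 or more in size, 1 of the 8 was called, against 3.33% of all genes. The groups did not overlap for 3 of the 8, against 35.9% of all genes.

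*EPAS1* encodes HIF-2 alpha. Its TPM was 26.1, 24.2, 27.6 and 32.0 in the WT libraries of CAKi-1, against 118, 109, 107, 129.6 and 98.3 in the A4KO libraries. The lowest A4KO library was above the highest WT library by a wide margin. The ratio of the group means was 4.08, and the log2 fold change was 1.99 (SE 0.0983, adjusted p = 2.66e-06), which ranked 80th among 7912 genes with a higher mean. Without A4KO replicates 1 and 4, the log2 fold change was 1.90 (adjusted p = 2.47e-05). The change was not shared by the region: the 10 nearest expressed genes of *EPAS1* had a median log2 fold change of 0.09, ranging from -0.32 to 0.42, and the 846 expressed genes of chromosome 2 had a median of 0.02.

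*HIF1A*, which encodes HIF-1 alpha, was the most abundant of the 8 genes in CAKi-1. Its TPM was 275, 265, 278 and 291 in WT, against 272, 218, 217, 282 and 214 in A4KO. Replicates 1 and 4 of A4KO lay within the WT range and the other 3 lay below it. With all 9 libraries its log2 fold change was -0.21 (95% CI -0.43 to 0.00, adjusted p = 0.106). With A4KO replicates 2, 3 and 5 alone it was -0.36 (adjusted p = 8.74e-04), so whether *HIF1A* passed depended on which A4KO libraries were used. *ARNT*, the beta subunit that both alpha subunits need for DNA binding, ran from 35.0 to 41.0 TPM in WT and from 36.5 to 50.6 TPM in A4KO, where replicates 1 and 4 were the highest. Its log2 fold change was 0.17 (95% CI -0.07 to 0.41, adjusted p = 0.234), and 0.02 without those libraries.

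The TPM of *VHL* was 19.3, 20.0, 21.5 and 24.6 in CAKi-1 WT, against 26.0, 25.2, 26.9, 26.0 and 27.8 in A4KO. The groups did not overlap, though the gap between WT replicate 4 and A4KO replicate 2 was small. *VHL* rose, with a log2 fold change of 0.30 (SE 0.0718, adjusted p = 0.00995), and with the 3 A4KO replicates it was 0.31 (adjusted p = 0.0239). Of its 10 nearest expressed genes 2 were lower and 8 higher in A4KO (median 0.28). When the median shift of 25 flanking expressed genes per side was taken off in each library (neighbour-centred values), *VHL* was 0.19 higher and did not pass (adjusted p = 0.0769).

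Among the prolyl hydroxylases of CAKi-1, *EGLN2* (PHD1) was the highest, with a TPM of 81.5, 85.9, 79.9 and 88.1 in WT, against 69.2, 77.1, 79.8, 70.5 and 76.4 in A4KO. The groups just failed to touch, and *EGLN2* fell by 0.17 on the log2 scale (SE 0.0588, adjusted p = 0.0477), and it passed under 4 of its 16 alternatives. With A4KO replicates 2, 3 and 5 alone the log2 fold change was -0.11 (adjusted p = 0.130). On neighbour-centred values it was -0.26 (adjusted p = 0.00835). *EGLN2* shares 30.6% of its exon bases with the readthrough gene *RAB4B-EGLN2*, which the tables list separately at group means of 1.16 to 2.13 TPM. *EGLN1* (PHD2, the main oxygen sensor in most cells) ran from 50.2 to 65.4 TPM in WT. In A4KO it was at 56.3 and 51.8 TPM in replicates 1 and 4 and at 41.2, 41.2 and 41.8 TPM in the others. Over all 5 the log2 fold change was -0.28 (95% CI -0.54 to -0.01, adjusted p = 0.0885), and over the 3 it was -0.43 (adjusted p = 0.00678). On neighbour-centred values over all 5 it was -0.10 (adjusted p = 0.534). GENCODE places another gene model, not analysed here, over 55.8% of the exon bases of *EGLN1*. *EGLN3* (PHD3) was barely expressed, with a TPM of 0.870, 0.922, 0.654 and 0.786 in WT, against 0.301, 0.490, 0.485, 0.416 and 0.748 in A4KO. The groups overlapped through A4KO replicate 5, *EGLN3* fell by 0.29 (SE 0.0857, adjusted p = 0.0261), and with the 3 replicates it was -0.20 (adjusted p = 0.0823). *EGLN3* passed under 10 of its 15 alternatives, and at this low level the size rests on the pseudocount: the log2 fold change was -0.66 with a pseudocount of 0.1, and the ratio of the means was 0.603. How many reads lie behind such low values is not known, since TPM does not keep them. *HIF1AN* was at 25.9 to 29.8 TPM in WT and 27.6 to 32.5 TPM in A4KO, with a log2 fold change of 0.08 (95% CI -0.07 to 0.24, adjusted p = 0.378). On neighbour-centred values *ARNT* and *HIF1AN* passed in CAKi-1, 0.32 (adjusted p = 0.0230) and 0.27 higher (adjusted p = 0.0181). Not centred and without A4KO replicates 1 and 4, the log2 fold change of *HIF1AN* was 0.02 (adjusted p = 0.873).

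**Figure D1:**
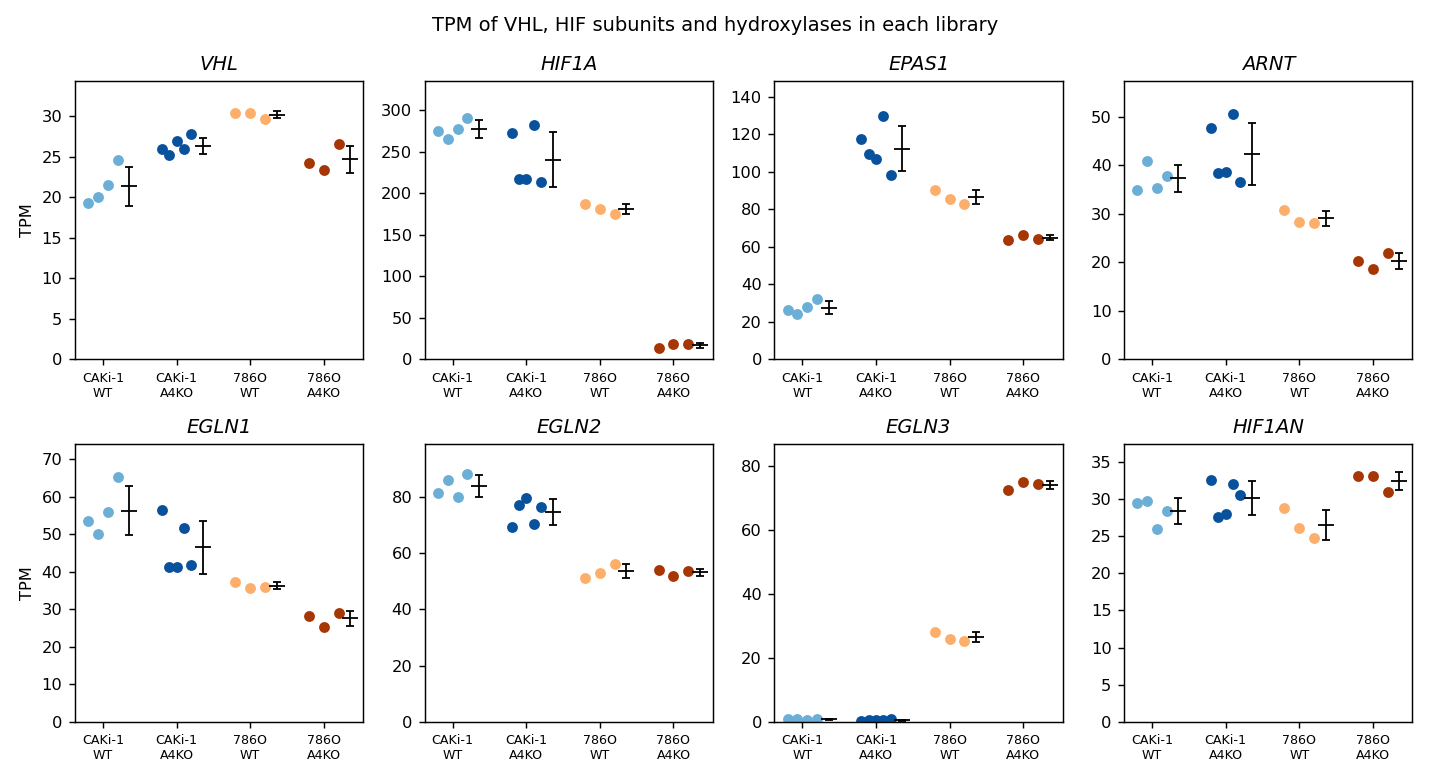
TPM (y axis, linear, from 0) of the 8 genes in each library, by line and genotype on the x axis; points are libraries in replicate order and black marks are means with SD. *EPAS1* is at 24.2 to 32.0 TPM in CAKi-1 WT and 98.3 to 129.6 TPM in CAKi-1 A4KO, *HIF1A* drops from 174 to 186 TPM to 13.3 to 18.2 TPM in 786O, and *EGLN3* is under 1 TPM in CAKi-1 but 72.6 to 75.1 TPM in 786O A4KO.

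In 786O the larger step was in the other alpha subunit gene, and *EPAS1* fell by less. The TPM of *HIF1A* was 186, 181 and 174 in WT, against 13.3, 17.5 and 18.2 in A4KO. Every A4KO library was below every WT library, by 11.1-fold between the means, and *HIF1A* fell by 3.40 on the log2 scale (SE 0.115, adjusted p = 3.16e-06), the 44th largest of 8846 genes with a lower mean. For *EPAS1* the WT libraries read 90.3, 85.6 and 82.8 TPM and the A4KO libraries 63.5, 66.2 and 64.2 TPM. It fell by 0.41 (SE 0.0446, adjusted p = 3.46e-04), the opposite direction to CAKi-1. For *ARNT* they read 30.8, 28.3 and 28.0 TPM and 20.2, 18.7 and 21.9 TPM, and it fell by 0.50 (SE 0.0696, adjusted p = 0.00105). All 3 HIF subunit genes were thus lower in 786O A4KO, without overlap of the groups. Of all genes in 786O, 66.9% did not overlap and 33.5% passed as lower.

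*EGLN3*, whose product is the prolyl hydroxylase most strongly induced by HIF in many cells, moved the other way. Its TPM was 28.3, 25.9 and 25.4 in 786O WT, against 72.6, 75.1 and 74.5 in A4KO, a ratio of 2.79. The replicates of each group lay within a few TPM of each other. *EGLN3* rose by 1.45 on the log2 scale (SE 0.0492, adjusted p = 3.20e-06), the 159th largest of 7342 genes with a higher mean. For *EGLN1* the WT libraries read 37.3, 35.5 and 35.8 TPM and the A4KO libraries 28.3, 25.4 and 29.1 TPM, and it fell by 0.38 (SE 0.0583, adjusted p = 0.00158). *EGLN2* was at 51.3 to 56.3 TPM in WT and 51.9 to 53.9 TPM in A4KO. For *EGLN2* the log2 fold change was -0.01 with a 95% CI of -0.12 to 0.10 (adjusted p = 0.887), an interval that leaves out a change as large as the one in *EGLN1*.

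The TPM of *VHL* was 30.5, 30.5 and 29.7 in 786O WT, against 24.2, 23.4 and 26.5 in A4KO, and it fell by 0.28 (SE 0.0537, adjusted p = 0.00428). For *HIF1AN* the values were 28.8, 26.1 and 24.7 in WT, against 33.1, 33.1 and 31.0 in A4KO, and it rose by 0.28 (SE 0.0635, adjusted p = 0.00887). Neither pair of groups overlapped, but the gap was smaller than for *HIF1A* or *EGLN3*. In all, 7 of the 8 genes passed in 786O, against 61.0% of the 16188 genes. Of these 2 were higher and 5 lower, against 27.5% and 33.5% of all genes. At the study's threshold 2 were called, against 7.62% of all genes. The groups did not overlap for 7 of the 8, against 66.9% of all genes. With 3 libraries against 3, an exact permutation test on a single gene cannot give less than p = 0.1.

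*HIF1A* and *EGLN3* both lie on chromosome 14 (hg38, chr14:61695513-61748259 and chr14:33924227-34462774 in GENCODE release 44), and in 786O that chromosome stood apart as a whole. Of its 413 expressed genes 386 were lower in A4KO (93.5%), with a median log2 fold change of -0.77 and quartiles of -1.02 and -0.50. *HIF1A* was the second lowest of the 413, and 4 genes, *EGLN3* included, were at or above the value of *EGLN3*. The 10 nearest expressed genes of *HIF1A* had a median of -0.86, against -0.84 over its 25 neighbours per side. The 10 nearest expressed genes of *EGLN3* were all lower, with a median of -0.57. On neighbour-centred values *HIF1A* fell by 2.56 (adjusted p = 1.10e-05) and *EGLN3* rose by 2.21 (adjusted p = 6.91e-07). In CAKi-1 the median of chromosome 14 was 0.06.

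The same comparison changed what was seen for *VHL* in 786O. All 10 of its nearest expressed genes on chromosome 3 were lower in A4KO (median -0.36), and the neighbour-centred log2 fold change of *VHL* was 0.04 (adjusted p = 0.553). Neighbour-centred, *EGLN2* rose by 0.28 (adjusted p = 0.00684) and *HIF1AN* was 0.18 higher without passing (adjusted p = 0.0622). *EPAS1*, *ARNT* and *EGLN1* remained lower and past the threshold, by 0.61, 0.49 and 0.24. DNA was not measured, and the part of the regional shifts in these values was not tested beyond the centring.

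**Figure D2:**
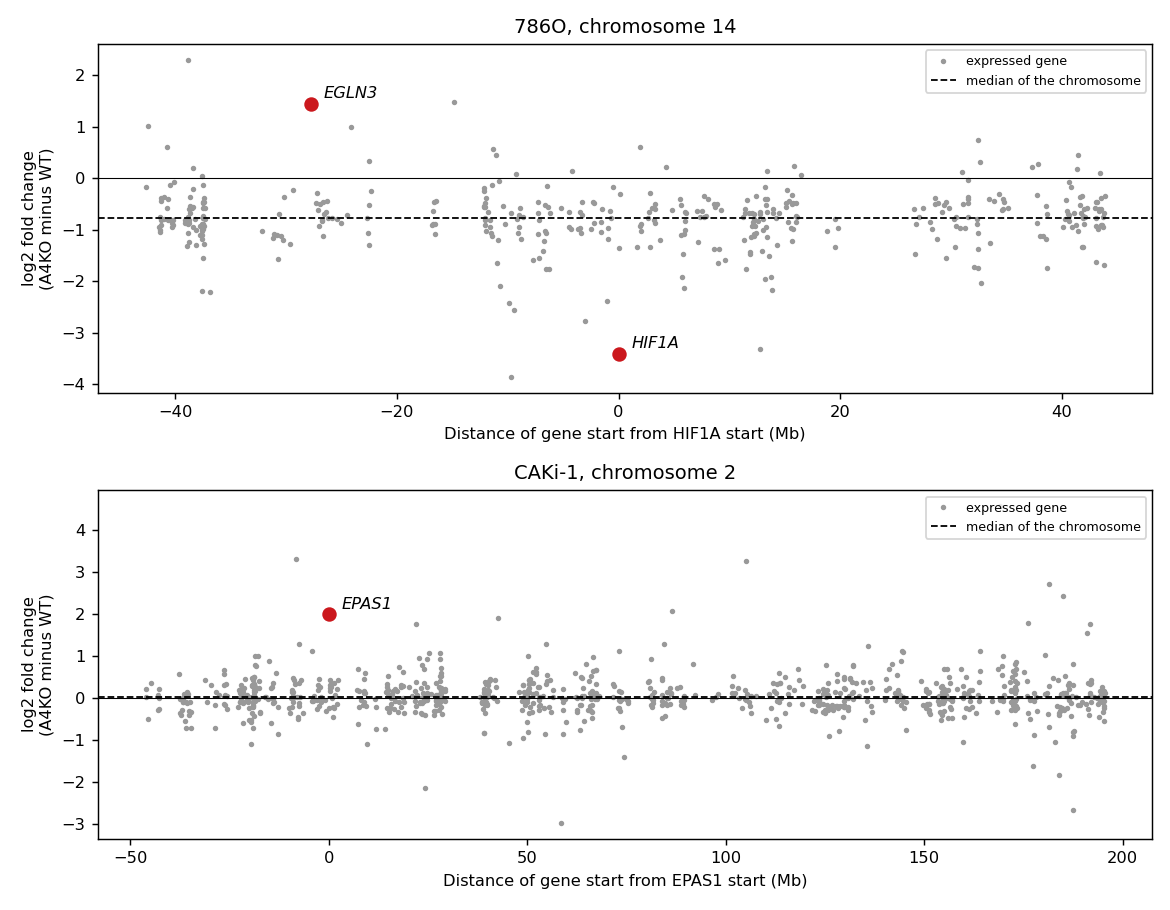
Log2 fold change of TPM + 1, A4KO minus WT (y axis), against the distance in Mb of each gene's start from *HIF1A* on chromosome 14 in 786O (top) and from *EPAS1* on chromosome 2 in CAKi-1 (bottom); each grey point is an expressed gene and the dashed line is the median of the chromosome. On chromosome 14 the median is -0.77 with *HIF1A* far below and *EGLN3* far above it, while on chromosome 2 the median is 0.02 and *EPAS1* is at 1.99.

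The effect of A4KO, in which loss of *ANGPTL4* cannot be told apart from the selection of clones, was then compared between the lines. The difference of the effects was tested in 1 limma model over the 15247 shared genes, as the log2 fold change in CAKi-1 minus that in 786O. It passed for 5 of the 8 genes, against 55.1% of all shared genes. The difference was 3.19 for *HIF1A* (SE 0.158, adjusted p = 1.80e-09), from -0.21 in CAKi-1 and -3.40 in 786O. It was 2.40 for *EPAS1* (SE 0.131, adjusted p = 4.55e-09), from 1.99 and -0.41. For *EGLN3* it was -1.73 (SE 0.116, adjusted p = 3.51e-08), from -0.29 and 1.45. These 3 differences stayed past the threshold when A4KO replicates 1 and 4 of CAKi-1 were left out and on neighbour-centred values.

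*ARNT* differed by 0.67 between the lines (SE 0.147, adjusted p = 0.00158), and *VHL* by 0.58 (SE 0.101, adjusted p = 2.42e-04). On neighbour-centred values the difference for *VHL* was 0.15 (adjusted p = 0.248), and that for *ARNT* was 0.81 (adjusted p = 1.40e-04). For *EGLN1* the difference was 0.11 (95% CI -0.23 to 0.45), for *EGLN2* -0.16 (95% CI -0.33 to 0.02) and for *HIF1AN* -0.20 (95% CI -0.42 to 0.02), and none of these passed. On neighbour-centred values *EGLN2* passed, at -0.54 (adjusted p = 1.73e-04), and without A4KO replicates 1 and 4 *HIF1AN* passed, at -0.27 (adjusted p = 0.0269).

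**Figure D3:**
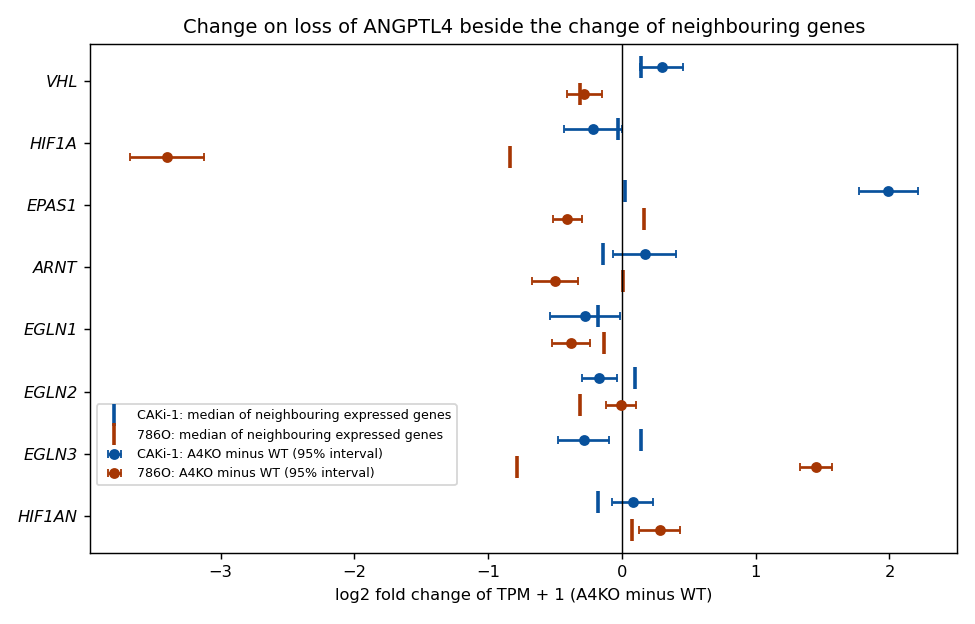
Log2 fold change of TPM + 1, A4KO minus WT (x axis), of the 8 genes in CAKi-1 (blue) and 786O (brown), as points with 95% intervals; the vertical ticks give the median change of 25 flanking expressed genes per side in the same line. The point for *HIF1A* in 786O lies at -3.40 beside a tick at -0.84, and that for *EGLN3* in 786O at 1.45 beside a tick at -0.78.

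Levels in the 2 lines are in separate tables, so line and table cannot be told apart and these values are a description without a test. In WT cells, 2 of the 8 genes were at least 1 log2 unit apart without overlap, against 18.3% of all shared genes. *EGLN3* was 32.8-fold higher in 786O, at 26.5 ± 1.505 TPM against 0.808 ± 0.117 TPM, and *EPAS1* was 3.14-fold higher in 786O, at 86.2 ± 3.77 against 27.5 ± 3.34 TPM. The other 6 were within 1.57-fold of each other. By mean TPM *HIF1A*, *ARNT*, *EGLN1* and *EGLN2* were higher in CAKi-1 and *VHL* was higher in 786O, while the libraries overlapped for *HIF1AN*. After loss of *ANGPTL4*, 3 of the 8 met the same rule, against 16.3% of shared genes. *HIF1A* was 14.7-fold higher in CAKi-1, *EGLN3* was 151.9-fold higher in 786O, and *ARNT* was 2.09-fold higher in CAKi-1, a value at the edge of the rule (1.02 on the log2 scale). *EPAS1* was now 1.74-fold higher in CAKi-1, and the levels of *VHL* and *HIF1AN* overlapped between the lines.

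The order of the 8 genes by mean TPM began with *HIF1A* in 3 of the groups. In CAKi-1 WT it was followed by *EGLN2*, *EGLN1* and *ARNT*, and then by *HIF1AN*, *EPAS1* and *VHL*, of which *HIF1AN* and *EPAS1*, and *EPAS1* and *VHL*, overlapped. In CAKi-1 A4KO *EPAS1* came second, above every library of *EGLN2*. In 786O WT the order was *HIF1A*, *EPAS1*, *EGLN2* and *EGLN1*, and the last 4, *VHL*, *ARNT*, *EGLN3* and *HIF1AN*, overlapped in turn. In 786O A4KO *EGLN3* was first and *HIF1A* last, and there *EGLN1* and *VHL* were the neighbours that overlapped.

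Since TPM is scaled for length, the alpha subunits can be set against each other within a library. The TPM of *EPAS1* divided by that of *HIF1A* was 0.0989 ± 0.00824 in CAKi-1 WT (SD, n = 4) and 0.469 ± 0.0280 in CAKi-1 A4KO (SD, n = 5). It was 0.477 ± 0.00671 in 786O WT and 4.02 ± 0.661 in 786O A4KO (SD, n = 3 each). *EPAS1* thus held 9.00% of the summed TPM of both genes in CAKi-1 WT, 31.9% in CAKi-1 A4KO, 32.3% in 786O WT and 79.9% in 786O A4KO. In each line the share of *EPAS1* was higher in every A4KO library than in every WT library, with a higher TPM of *EPAS1* in CAKi-1 and a lower TPM of *HIF1A* in 786O. The summed TPM was 304.8 ± 13.8 and 352.8 ± 44.8 in CAKi-1 WT and A4KO, and 267.0 ± 9.69 and 81.0 ± 3.65 in 786O WT and A4KO.

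The prolyl hydroxylases differed between the lines in make-up more than in sum. Their summed TPM was 141.0 ± 8.90 in CAKi-1 WT, 121.6 ± 2.93 in CAKi-1 A4KO, 116.3 ± 1.61 in 786O WT and 154.8 ± 2.47 in 786O A4KO. *EGLN2* was the largest part in CAKi-1 WT (59.6%), CAKi-1 A4KO (61.5%) and 786O WT (46.0%). *EGLN3* held 0.575% and 0.404% of the sum in CAKi-1 WT and A4KO, 22.8% in 786O WT and 47.8% in 786O A4KO, where it was the largest part.

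**Figure D4:**
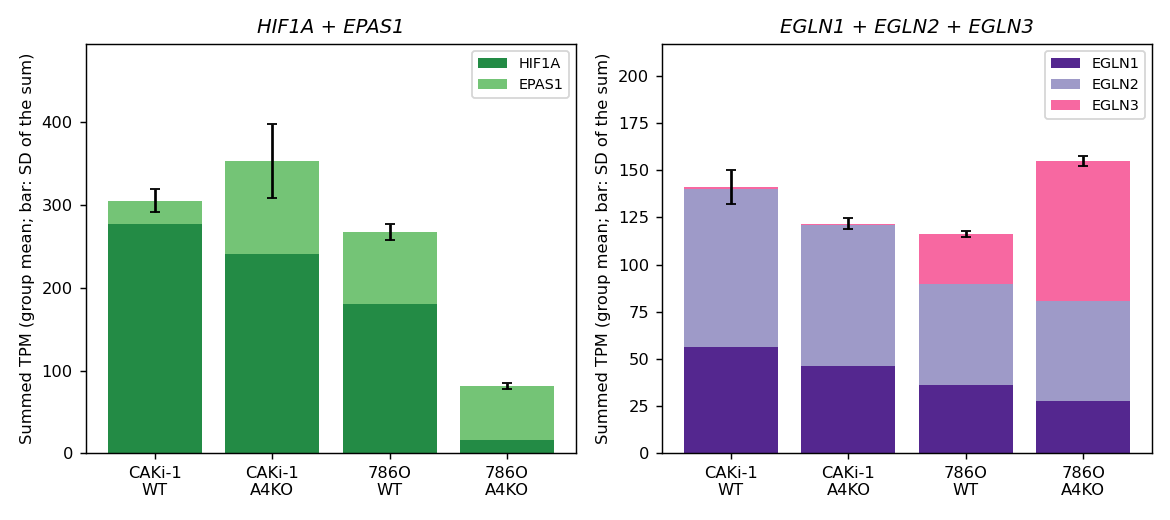
Summed TPM (y axis, from 0) of the HIF alpha subunit genes (left) and of the 3 prolyl hydroxylase genes (right) in each group, as stacked group means with the SD of the sum. The *EPAS1* part grows from CAKi-1 WT to A4KO, the *HIF1A* part nearly vanishes in 786O A4KO, and *EGLN3* is visible only in 786O.

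The rest of the pathway was read from lists of related genes. The first held 7 genes whose products bind VHL or form its ligase: the ligase subunits *ELOB*, *ELOC*, *CUL2* and *RBX1*, the prefoldin subunit *VBP1*, and the deubiquitinases *USP20* and *USP33*. In CAKi-1 2 of the 7 fell and none rose, against 21.1% and 17.9% of all genes. *CUL2*, the cullin scaffold, fell from 75.4 to 51.7 TPM (log2 fold change -0.54, adjusted p = 4.14e-04), and *ELOC*, the adaptor that VHL binds, fell from 221 to 172 TPM (-0.37, adjusted p = 0.00971). In 786O 3 of the 7 rose and 1 fell, against 27.5% and 33.5% of all genes. *VBP1* rose by 0.34, *ELOB*, the other elongin adaptor, by 0.23, and *RBX1*, the ring-finger subunit, fell by 0.31 (adjusted p = 0.00177). The median log2 fold change of the list was -0.20 in CAKi-1 and 0.12 in 786O, against -0.01 and -0.03 over all genes. The A4KO effect differed between the lines for 5 of the 7, against 55.1% of all shared genes. On neighbour-centred values *RBX1* and *ELOB* did not pass in 786O.

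Of 12 other HIF subunits and regulators, 3 rose and none fell in CAKi-1, and 3 rose and 5 fell in 786O. Of all genes 17.9% rose and 21.1% fell in CAKi-1, and 27.5% rose and 33.5% fell in 786O. *ARNT2*, the paralog of *ARNT*, rose from 0.987 ± 0.111 to 4.10 ± 0.693 TPM in CAKi-1 (log2 fold change 1.35, adjusted p = 2.30e-05). In 786O *ARNT2* was at 3.43 TPM in WT and 2.62 TPM in A4KO and did not pass. *P4HTM*, a transmembrane prolyl hydroxylase, rose in both lines, by 0.69 in CAKi-1 (adjusted p = 0.00509) and by 0.25 in 786O (adjusted p = 0.00232). In 786O the coactivator gene *EP300* fell by 0.52 (adjusted p = 1.00e-04), *CITED2*, whose product competes with HIF for that coactivator, rose by 0.33, and *BMAL1*, a bHLH-PAS relative of *ARNT*, fell by 0.65. On neighbour-centred values the log2 fold changes in 786O were -0.29 for *EP300*, 0.53 for *CITED2* and 0.50 for *P4HTM*, all past the threshold. *HIF3A*, the remaining alpha subunit, was at 3.23 and 3.83 TPM in CAKi-1 and at 0.158 and 0.119 TPM in 786O, and did not pass in either line. The median of the list was 0.02 in CAKi-1 and -0.09 in 786O.

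The hydroxylases use 2-oxoglutarate and are inhibited by succinate and fumarate, so 8 genes for enzymes that make or clear these or related metabolites were included, of which 4 encode subunits of succinate dehydrogenase. In CAKi-1 6 of the 8 genes fell and 1 rose, with a median of -0.21, against 21.1% and 17.9% of all genes. *FH*, fumarate hydratase, fell from 129 ± 3.13 to 90.8 ± 14.04 TPM (-0.51, adjusted p = 0.00503), the succinate dehydrogenase subunit *SDHB* fell by 0.44 and the subunit *SDHA* rose by 0.19. In 786O 3 rose and 4 fell, with a median of -0.11, against 27.5% and 33.5% of all genes. There *FH* rose from 68.0 ± 2.12 to 104 ± 3.63 TPM (0.60, adjusted p = 6.02e-05), *IDH2* rose by 0.39 and *SDHD* fell by 0.43. *FH* and *SDHB* lie on chromosome 1, and on neighbour-centred values neither passed in CAKi-1, nor did *SDHA*. On these values in 786O *SDHD* was 0.12 higher, the reverse of its fall, and *IDH2* 0.22 higher, both past the threshold.

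Of the other tumor suppressors that ccRCC loses with *VHL* on the short arm of chromosome 3, *PBRM1* fell in both lines, by 0.31 in CAKi-1 (adjusted p = 0.0139) and by 0.49 in 786O (adjusted p = 7.67e-04). *BAP1* rose by 0.18 in CAKi-1, and *SETD2* fell by 0.19 in 786O, where it did not pass without WT replicate 2 or A4KO replicate 1 or 3 (adjusted p up to 0.0561). On neighbour-centred values *PBRM1* and *SETD2* did not pass in 786O, nor *BAP1* in CAKi-1.

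The HIF target list held 27 genes, of which *EPO* was not analysed here, nor *CA9* in CAKi-1. In CAKi-1 4 of the 25 tested rose and 9 fell, with a median of -0.02, against 17.9% and 21.1% of all genes. *CCND1*, a cyclin known as a HIF-2 target in ccRCC, fell from 138 ± 10.7 to 39.0 ± 7.70 TPM (-1.82, adjusted p = 2.52e-05). *CA12*, a carbonic anhydrase, was at 1.45 ± 0.325 and 7.04 ± 4.43 TPM (1.55, adjusted p = 0.00760), and *DDIT4*, an mTOR inhibitor, rose by 1.29 (adjusted p = 0.0143). The A4KO libraries ran from 3.39 to 12.7 TPM for *CA12* and from 182 to 467 TPM for *DDIT4*, and without A4KO replicates 1 and 4 the log2 fold changes were 0.99 and 0.86, both still past the adjusted p but under the fold change threshold. In 786O 9 of 26 rose and 14 fell, with a median of -0.11, against 27.5% and 33.5% of all genes. *LOX*, lysyl oxidase, fell from 19.6 ± 1.02 to 0.506 ± 0.178 TPM (-3.78, adjusted p = 1.14e-06), and *CA9*, a carbonic anhydrase known as a HIF-1 target, fell from 7.54 ± 0.774 to 0.287 ± 0.177 TPM (-2.73, adjusted p = 7.24e-06). *NDRG1* rose from 355 ± 8.48 to 949 ± 13.3 TPM (1.42, adjusted p = 1.25e-06) and *ALDOA*, a glycolytic aldolase, rose by 0.99, or by 0.59 on neighbour-centred values. With a pseudocount of 0.1 the log2 fold change of *CA9* was -4.41. Targets thus moved in both directions in both lines. The effect differed between the lines for 14 of the 25 genes in both tables, a share near the 55.1% of all shared genes.

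**Figure D5:**
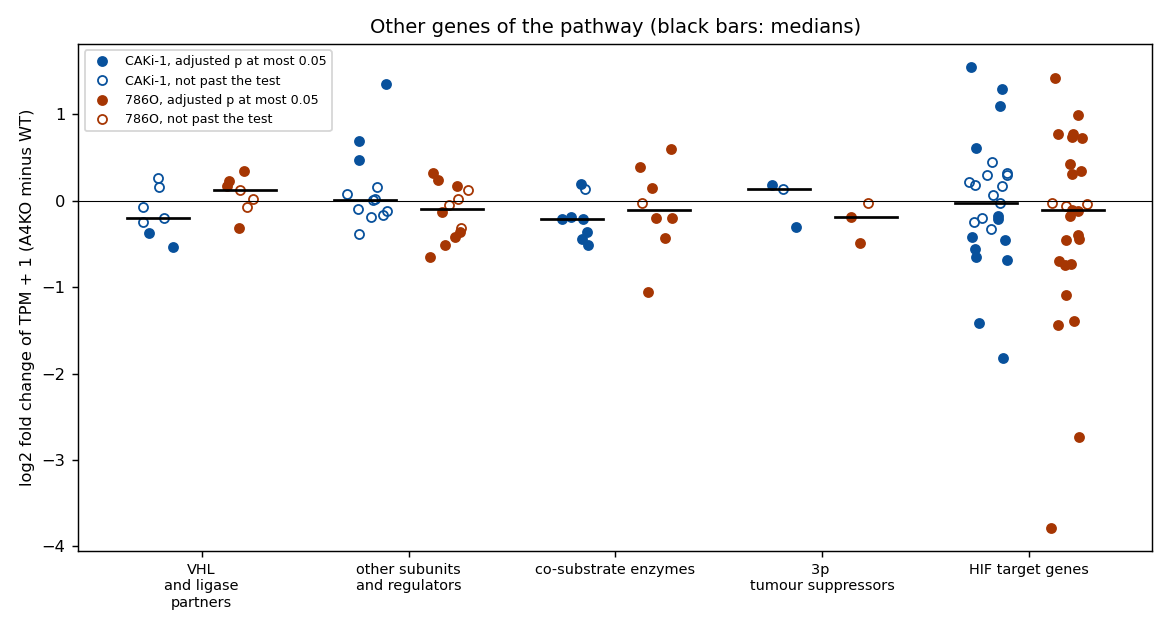
Log2 fold change of TPM + 1, A4KO minus WT (y axis), of the genes of the 5 pathway lists in CAKi-1 (blue, left of each pair) and 786O (brown, right); filled points passed an adjusted p of 0.05, open points did not, and black bars are medians. The medians lie between -0.21 and 0.14, while single HIF targets run from -1.82 to 1.55 in CAKi-1 and from -3.78 to 1.42 in 786O.

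The genes whose pattern was most like that of each of the 8 were named from the Pearson r of log2(TPM + 1) over the 15 libraries, each line's mean taken off, among 12551 expressed shared genes. These points share genotype, so that genes with a large A4KO effect in 1 line correlate with each other, and r is a description only. For *HIF1A* the closest were *TMEM92* (r = 0.995), *APCDD1L* and *SAMD5*, for *EPAS1* *TNFSF10* (0.993), *P3H1* and *PAIP1*, and for *EGLN3* *TMED5* (0.987), *HACD3* and *WDR72*. For *VHL* they were *EREG* (0.965), *TUBD1* and *CLEC4E*, and for *ARNT* *POLI* (0.962), *PPOX* and *SOS2*. The closest were *ATOSB* (0.953) for *EGLN1*, *AURKAIP1* (0.940) for *EGLN2* and *TMLHE* (0.913) for *HIF1AN*. Of the 9 genes named for *HIF1A*, *EPAS1* and *EGLN3*, none lies on the chromosome of its partner.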

How the data were processed

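RNA from WT and A4KO cells of CAKi-1 and 786O was sequenced after poly(A) selection with the NEBNext Ultra II kit, as 150-base paired-end reads at a stated 3 M reads per sample. Per the labels and methods, kallisto and hg38 were used for pseudoalignment, and the authors deposited 1 table of gene-level TPM per line; tool versions, the transcript annotation and the gene filter are not given in the sources used here. That the unit is TPM was taken from library sums between 961437 and 973887 of values that are not whole. TPM keeps no depth, so no counting error can be given. The tables hold 16296 genes (CAKi-1) and 16188 genes (786O), with 0 values at exactly 0. The lines were tabulated separately, so A4KO was tested against WT within a table only.

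From the deposited TPM, log2(TPM + 1) was compared with limma 3.58.1 in R 4.3.3 (lmFit, eBayes, two-sided, Benjamini-Hochberg over all genes, no filter on low values, no block). Fold changes are on this scale and understate the change of low genes. A gene passed at an adjusted p of 0.05 and was called if its absolute log2 fold change was also at least 1. The difference of the effects was a contrast over the 4 groups and the genes of both tables. Genes with a mean log2(TPM + 1) of at least 1 counted as expressed, and neighbours were 25 such genes on each side by GENCODE release 44. The model was tested on simulated data. Nothing in the labels says that replicates were separate cultures, so p-values measure only the spread between libraries, which may be technical. Replicate numbers were not taken as pairs, since same-numbered libraries did not deviate together.

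The 8 genes and the pathway lists were chosen with earlier results of these data known. From each list the text names the 2 largest rises and falls per line among genes that passed and whose groups did not overlap, 2 of which are not reported here; *ARNT2* in 786O and *HIF3A* were added after their values were seen. Likeness takes the 3 genes with the highest r. Alternatives were a pseudocount of 0.1, a filter at a mean of 1 TPM, quantile normalization, trend and robust options of eBayes, a replicate block, neighbour-centred values, A4KO replicates 2, 3 and 5 of CAKi-1 alone, each library left out in turn and, for levels between lines, TPM rescaled over shared genes and median-of-ratios scaling.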

Additional observations from a re-analysis of the deposited data

Results flagged for a closer look

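The A4KO effect differed between CAKi-1 and 786O, by the limma contrast of the effects, for 5 of the 8 genes, against 55.1% of all shared genes. The log2 difference, CAKi-1 minus 786O, was 3.19 for *HIF1A*, 2.40 for *EPAS1*, -1.73 for *EGLN3*, 0.67 for *ARNT* and 0.58 for *VHL*. *EPAS1*, *EGLN3* and *VHL* passed in opposite directions in the 2 lines. *HIF1A* and *ARNT* passed in 786O and not in CAKi-1. In 786O the whole of chromosome 14, which holds *HIF1A* and *EGLN3*, had a median log2 fold change of -0.77, and the difference for *VHL* was 0.15 on neighbour-centred values (adjusted p = 0.248). No library stood out by Dixon's test in the 16 sets of 4 or 5 CAKi-1 libraries examined, although A4KO replicates 1 and 4 lay apart together.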

How the results depend on the processing

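The number of the 8 genes past the adjusted p was 4 in CAKi-1, 7 in 786O and 5 for the difference of the effects. Adding the fold change threshold left 1 in CAKi-1 and 2 in 786O. Leaving out 1 library at a time gave 2 to 4 in CAKi-1, with 2 without WT replicate 1, 2 or 4, and 7 in 786O and 5 for the difference in every case. *EGLN2* and *EGLN3* were the genes lost in CAKi-1, where *HIF1A* passed without A4KO replicate 4 and *EGLN1* without A4KO replicate 1. A filter at a mean of 1 TPM left *EGLN3* out of CAKi-1 and of the difference. *EPAS1* in CAKi-1 and *HIF1A*, *EGLN3*, *EPAS1*, *ARNT* and *EGLN1* in 786O passed under every alternative run. Signs turned on neighbour-centred values in 786O for *VHL* (0.0383), *EGLN2* (0.28), *ELOB* (-0.0116), *SDHD* (0.12) and *SETD2* (0.0604), and for the difference of *HIF1AN* (0.10); for *EGLN2* in 786O also with quantile normalization (0.0090), without WT replicate 3 or A4KO replicate 2 (range over libraries left out, -0.0383 to 0.0274); and for the difference of *EGLN1* with A4KO replicates 2, 3 and 5 alone (-0.0444). Neighbour-centring takes off the shift of the region by construction. The numbers of replicates did not pair the libraries: correlations of their deviations were -0.06, 0.12, -0.04 and 0.14 in CAKi-1 and -0.05, 0.02 and 0.01 in 786O. With the replicate block 3, 7 and 5 genes passed in CAKi-1, 786O and for the difference, and *EGLN2* in CAKi-1 was -0.18 (adjusted p = 0.117). Between the lines 2 genes were apart in WT under every alternative, and 2 or 3 in A4KO, where *ARNT* lay at the edge. With a pseudocount of 0.1 the log2 difference of *EGLN3* was -4.88 in WT and -7.02 in A4KO.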
